A study of Mus musculus with 12 samples.

Results

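The 10 genes described here carry the insulin signal and move glucose in fat cells: Insr, Irs1, Irs2, Pik3r1, Akt1, Akt2, Tbc1d4, Slc2a4, Slc2a1 and Foxo1. They were picked by name, and each was found by its mouse Ensembl identifier among the 23474 genes of an RNA-seq table of epididymal white adipose tissue (eWAT), the fat depot attached to the epididymis. Insulin binds its receptor, which phosphorylates the insulin receptor substrates. These recruit phosphoinositide 3-kinase, whose lipid product brings AKT kinases to the membrane, where AKT phosphorylates TBC1D4 so that vesicles carrying the glucose transporter GLUT4 fuse with the cell surface. AKT also keeps the transcription factor FOXO1 out of the nucleus. In adipocytes GLUT4 serves insulin-stimulated uptake and GLUT1 serves basal uptake.

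All mice were male C57BL/6J animals aged 17 weeks that had been fed their diet for 12 weeks from the age of 5 weeks. The 4 groups were a normal diet (ND), a high-fat diet (HFD), the HFD plus an ethanol extract of green tea at 0.25% by weight (GT) and the HFD plus 3% by weight of Taeeumjowuitang (TJ), a Korean herbal formula of plant water extracts. GT and TJ mice thus also ate the HFD, and the extracts were whole mixtures rather than single compounds. Each group gave 3 libraries of 1 mouse each, out of 10 mice per group by the labels, and mice were fasted before the tissue was taken. Expression was given as FPKM, a fragment count scaled by transcript length and by sequencing depth, so that levels can be set side by side between genes.

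ND replicate 1 stood apart from the other libraries, and ND replicate 3 and 2 HFD libraries also carried RNA of other tissues. ND replicate 1 held 93763 summed FPKM of 6 germ cell markers, against 138 and 2492 in the other ND libraries, and 12693 summed FPKM of 6 epididymis markers, against at most 7.99 there. Its FPKM values summed to 1002765, against 527904 to 725245 in the other 11 libraries, and its approximate depth was 9.44M fragments, against 15.0M to 18.8M. HFD replicate 1 held 1823 summed FPKM of germ cell markers and HFD replicate 2 held 1290 of epididymis markers, against at most 29.2 and 0.644 in the other HFD libraries. In HFD replicate 2, Crisp1 alone held 1172 FPKM of the epididymis sum. Of the 6 epididymis markers, 3 were at 0 in every HFD library. The germ cell sum of ND replicate 3, 2492, was above that of HFD replicate 1, and this library is 1 of the 2 ND libraries in every value without ND replicate 1. Adipocyte markers defined the tissue as labelled, with a sum of at least 15662 FPKM in every library but ND replicate 1, where it was 6865. The comparison of HFD with ND and the order of the groups are given with and without ND replicate 1.

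Under TJ, Slc2a4 and Akt2 rose and Slc2a1 fell. The fitted level of Slc2a4, which encodes GLUT4, was 1.77-fold that of the HFD group, that of Akt2 was 1.75-fold, and that of Slc2a1, which encodes GLUT1, was 0.606-fold. These folds are of FPKM + 1, and the ratios of mean FPKM were 1.79 for Slc2a4 and Akt2 and 0.544 for Slc2a1. Under GT, Akt2 rose 1.55-fold, and the other 9 genes did not pass the test. In bulk tissue, fewer cells of a type and less RNA per cell cannot be told apart. Differentially expressed genes (DEGs) had to pass a Benjamini-Hochberg adjusted p of 0.05 and to differ 1.5-fold or more, by limma on log2(FPKM + 1) over all genes that averaged 1 FPKM or more. In TJ against HFD, 2 of the 10 genes were upregulated, where 7.41% of 12807 tested genes were, and 1 of 10 was downregulated, where 11.1% of all tested genes were. In GT against HFD, 1 of 10 was upregulated, where 1.83% of 12766 genes were, and 0 were downregulated, where 1.81% were. Both comparisons use the same 3 HFD libraries. At an unadjusted p under 0.05 the count was 5 of 10 in each, where 41.4% of all genes were in TJ and 29.3% were in GT. In TJ against HFD, 2 of the 10 genes lay above HFD in every library, where 20.1% of genes did, and 3 lay below, where 31.4% did. In GT against HFD, 4 lay above, where 12.3% of genes did, and 1 lay below, where 24.4% did. With 10 genes, 1 call is 10% of them, so the downregulated share in TJ was near that of all genes.

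These calls depended on single libraries and on the fit. With no filter on low values, or with all 12 libraries in the fit, 0 of the 10 genes were called in either comparison with HFD. The same held with the replicate number as a block, and in GT when the fit had no trend of variance with level. The TJ call of Slc2a1 also depended on scaling, as given below. Without HFD replicate 1, 2 or 3 or TJ replicate 1, 0 genes of the whole table were called in TJ against HFD, against 2366 with all 6 libraries. Without TJ replicate 2 the same 3 genes were called, as they were without TJ replicate 3. The GT call of Akt2 was lost without HFD replicate 1, 2 or 3 or GT replicate 2 or 3, and without GT replicate 1 it was joined by Irs2 and Slc2a4. Without both HFD replicates that carried germ cell or epididymis RNA, 0 genes were called by limma in either comparison, with the 1 HFD library left assumed to vary like the others, and 18% (TJ) and 18.8% (GT) of genes had an unadjusted p under 0.05. The estimates were 1.10 for Slc2a4, 0.85 for Akt2 and -0.99 for Slc2a1 on the log2 scale in TJ against HFD. All log2 fold changes are differences of log2(FPKM + 1), which understates the change of low genes such as Irs1 and Slc2a1.

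In HFD against ND with all 6 libraries, limma called 0 of the 10 genes, where 1.73% of 14430 genes were upregulated and 0.0416% were downregulated. At an unadjusted p under 0.05 it was 1 gene, Akt1, where 11.6% of all genes were. All HFD libraries exceeded all ND libraries for 1 of the 10 genes, where 20.5% of genes did so, and lay below them for 0, where 5.89% did. With the replicate number as a block, 0 genes of the whole table were called, against 255. Without ND replicate 1, 3 of the 10 genes fell in HFD (Insr, Irs2 and Akt2), where 4.34% of 13661 genes did, and 1 rose (Akt1), where 11% did. The count at an unadjusted p under 0.05 was then 8 of 10, where 30.8% of all genes were. Every HFD library lay below both remaining ND libraries for 7 of the 10 genes, where 19.2% of genes did so, and above them for 1, where 28% did. In TJ against GT, which is also the test of the difference between both additions, limma called 0 of the 10 genes, where 0.139% of 12187 genes were upregulated and 0.00821% were downregulated. At an unadjusted p under 0.05 the count was 2 of 10, where 24.6% of all genes were. Every TJ library lay above every GT library for 0 of the 10 genes, where 19.5% of genes did, and below for 2 of them, where 14.9% did.

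**Figure D1:**
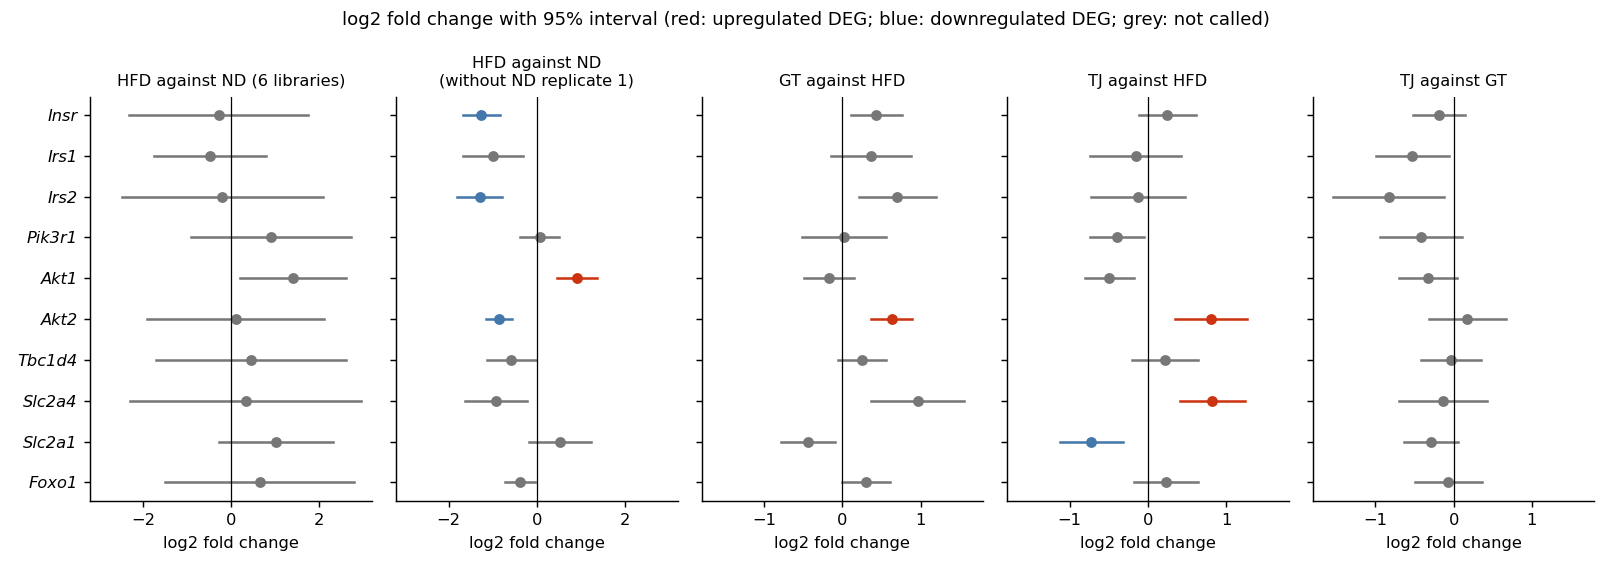
Points are log2 fold changes of the 10 genes (rows) in each comparison, with 95% intervals from limma, in red for upregulated and blue for downregulated DEGs. The horizontal axis runs wider in both panels of HFD against ND, where the intervals with all 6 libraries all span over 2 units and the estimate for Slc2a4 turns from 0.33 to -0.93 without ND replicate 1.

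Insr (chr8:3122061-3279617, minus strand of GRCm38, as all gene positions here) encodes the insulin receptor. Its level was 11.5, 15.8 and 12.6 FPKM in HFD replicates 1 to 3, 16.5, 17.8 and 20.3 in GT and 15.6, 14.6 and 17.5 in TJ. In ND, replicates 2 and 3 held 33.1 and 32.7 FPKM, about as much as each other and above every other library, while ND replicate 1 held 3.51. GT lay above HFD without overlap, by 0.43 ± 0.14 on the log2 scale (SE, limma adjusted p = 0.104), and TJ overlapped HFD at a difference of 0.25 ± 0.15 (adjusted p = 0.249). HFD fell below ND by 1.26 ± 0.16 on the log2 scale without ND replicate 1 (adjusted p = 0.00877), whereas with it the difference was -0.29 ± 0.83 (adjusted p = 0.858).

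Irs1 (chr1:82233101-82291416, minus strand) and Irs2 (chr8:10984681-11008458, minus strand) encode the docking proteins that the receptor phosphorylates. Irs1 was the lowest of the 10 genes, at 1.17, 1.73 and 1.15 FPKM in HFD, 1.56, 1.86 and 2.71 in GT and 1.08, 0.774 and 1.47 in TJ. Its ND values were 0.598, 3.23 and 4.12 FPKM. TJ lay below GT without overlap by 0.53 ± 0.20 on the log2 scale (adjusted p = 0.176), and the difference was -0.17 with the trend with transcript length removed (adjusted p = 0.558). Irs2 stood at 10.6, 11.9 and 12.1 FPKM in HFD, a narrow range, and at 13.6, 21.6 and 24.6 in GT, all above HFD. It stood at 11.9, 6.63 and 14.4 in TJ, around the HFD values. The ND values were 2.13, 24.3 and 36.4 FPKM in replicates 1 to 3. The difference was 0.70 ± 0.21 for GT against HFD (adjusted p = 0.0887), -0.13 ± 0.26 for TJ against HFD (adjusted p = 0.716) and -0.83 ± 0.30 for TJ against GT (adjusted p = 0.168). Without GT replicate 1 the difference of GT from HFD passed, at 0.94 (adjusted p = 0.0293). With ND replicate 1 left out, Irs2 fell by 1.30 ± 0.20 in HFD against ND (adjusted p = 0.0141), and the change of Irs1, -0.997 ± 0.272, missed the threshold (adjusted p = 0.0682). With all 6 libraries these differences were -0.20 ± 0.94 for Irs2 (adjusted p = 0.916) and -0.48 ± 0.52 for Irs1 (adjusted p = 0.634).

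The promoters of both genes are shown because Irs1 and Irs2 had similar profiles over the libraries and share a pair of motifs there. RefSeq gave promoters (GRCm38.p6, 250 bases before to 50 after the start) for 8 of the 10 genes, and 2 of these 8, Irs1 and Irs2, held both the E-box (CACGTG) and the insulin response sequence of FOXO factors (TGTTTTG). Irs1 (chr1:82291390-82291689, minus strand) and Irs2 (chr8:11008880-11009179, minus strand) are given 5′ to 3′, with matches to the E-box, to the insulin response sequence and to the GC box (GGGCGG) in capitals:
Irs1: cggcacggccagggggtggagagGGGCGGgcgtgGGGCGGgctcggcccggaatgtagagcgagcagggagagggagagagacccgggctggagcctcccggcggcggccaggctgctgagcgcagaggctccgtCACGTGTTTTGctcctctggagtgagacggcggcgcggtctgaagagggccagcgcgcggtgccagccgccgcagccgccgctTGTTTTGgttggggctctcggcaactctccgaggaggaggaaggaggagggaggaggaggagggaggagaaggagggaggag
Irs2: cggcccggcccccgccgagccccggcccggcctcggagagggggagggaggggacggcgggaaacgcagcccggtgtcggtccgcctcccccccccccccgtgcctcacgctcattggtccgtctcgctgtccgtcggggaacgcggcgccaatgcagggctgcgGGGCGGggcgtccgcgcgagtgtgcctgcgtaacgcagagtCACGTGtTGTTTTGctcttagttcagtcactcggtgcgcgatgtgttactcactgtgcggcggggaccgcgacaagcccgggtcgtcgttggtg
In Irs1 the E-box overlaps 1 of 2 matches to the insulin response sequence, and in Irs2 a single base lies between the E-box and that sequence. Searched on both strands over 32851 promoters of the same length, the E-box was present in 7.15%, the insulin response sequence in 6.28% and the GC box in 35.7%. The arrangement of the insulin response sequence after the E-box with at most 2 bases between them, or overlapping, was counted after both sequences had been read, and 9 promoters (0.0274%) held it. GTAAACA, a FOXO motif present in 3.65% of promoters, was found in 1 of the 8 genes, Akt1. The RefSeq start of Irs2 lies upstream of the gene position given above, which ends at 11008458, so its whole window lies outside that position. A match is a sequence, not a measured binding site.

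Pik3r1 (chr13:101680563-101768217, minus strand) encodes p85, the main regulatory subunit of phosphoinositide 3-kinase. It measured 19.8, 26.1 and 23.3 FPKM in HFD, 20.3, 18.4 and 33.4 in GT and 17.1, 15.8 and 18.8 in TJ. All TJ libraries lay below all HFD libraries, while GT replicate 3 held the highest value of all 12. The difference was -0.40 ± 0.15 for TJ against HFD (adjusted p = 0.0869) and 0.02 ± 0.23 for GT against HFD (adjusted p = 0.968). ND replicates 2 and 3 held 24.7 and 19.5 FPKM, within the HFD range or just under it, and the difference of HFD from them was 0.06 ± 0.18 (adjusted p = 0.833). With ND replicate 1, at 2.91 FPKM, it was 0.91 ± 0.74 (adjusted p = 0.547).

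Akt1 (chr12:112653821-112674884, minus strand) and Akt2 (chr7:27591552-27640826, plus strand) encode the AKT kinases, of which AKT2 is the one most tied to insulin-stimulated glucose uptake. Akt1 was highest in HFD, at 91.3, 81.3 and 79.0 FPKM, followed by 87.0, 74.1 and 63.5 in GT and by 58.3, 54.9 and 64.5 in TJ. It was lowest in ND, at 14.8, 37.1 and 52.5 in replicates 1 to 3, below every HFD library. TJ fell below HFD by 0.49 ± 0.13 on the log2 scale (adjusted p = 0.0430), short of the 1.5-fold threshold for a DEG, and with median-of-ratios scaling this adjusted p was 0.0748. The difference for GT was -0.17 ± 0.13 (adjusted p = 0.428). HFD exceeded ND by 1.41 ± 0.49 with all 6 libraries (adjusted p = 0.337) and rose by 0.91 ± 0.18 without ND replicate 1 (adjusted p = 0.0289).

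Akt2, the most abundant of the 10 genes in every library, held 121, 119 and 114 FPKM in HFD, a spread of a few percent. GT held 162, 184 and 205 FPKM and TJ held 197, 271 and 165, so that every library of both groups lay above every HFD library. The rise was 0.63 ± 0.11 in GT (adjusted p = 0.0379) and 0.81 ± 0.20 in TJ (adjusted p = 0.0372). ND replicates 2 and 3 held 199.6 and 229.8 FPKM and replicate 1 held 28.3. HFD fell below replicates 2 and 3 by 0.86 ± 0.11 (adjusted p = 0.00930), and the difference was 0.10 ± 0.82 with all 6 libraries (adjusted p = 0.952). GT and TJ overlapped at a difference of 0.18 with a 95% interval of -0.32 to 0.67.

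**Figure D2:**
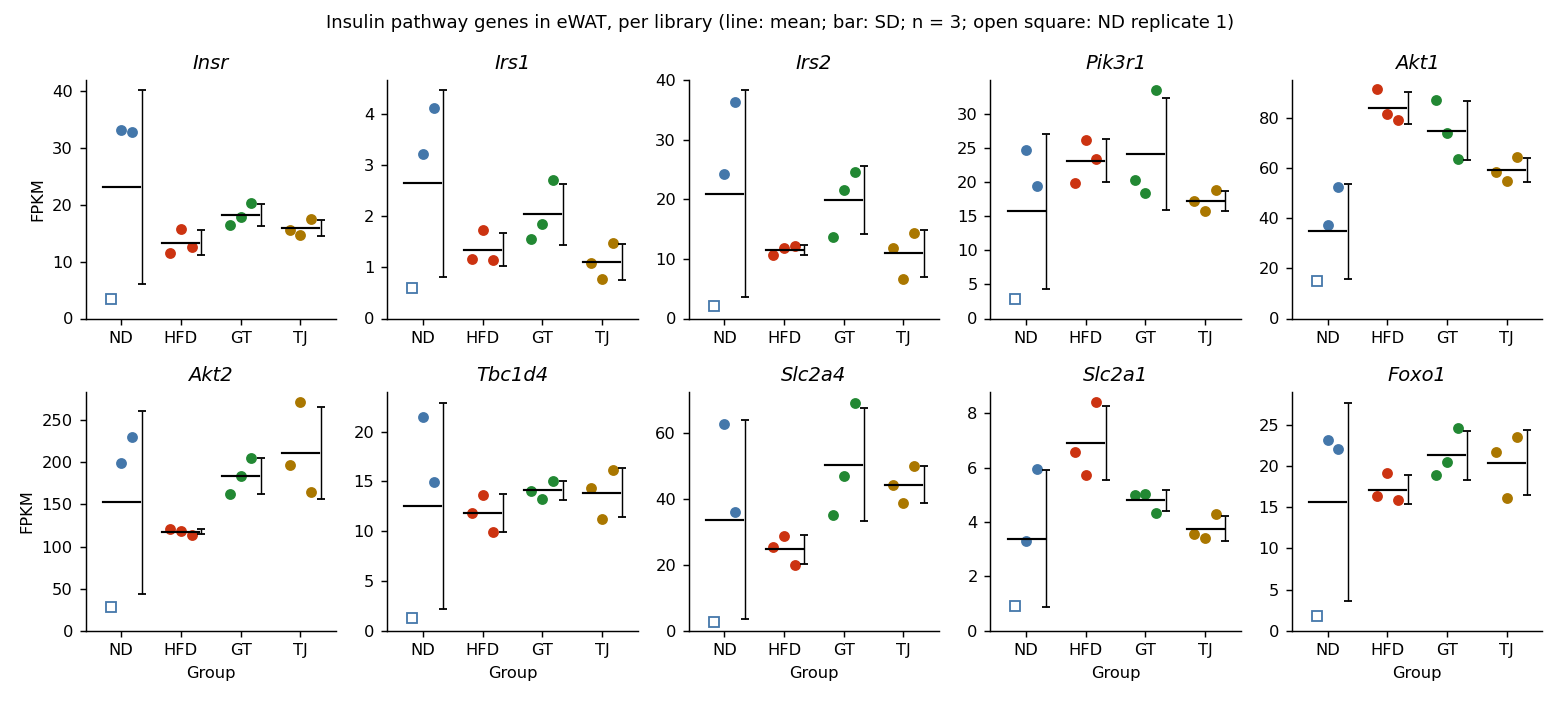
Each panel gives FPKM (linear axis from 0) of 1 gene in the 12 libraries by group, with the mean as a line and the SD as a bar beside it. ND replicate 1, an open square, was the lowest library for all 10 genes, HFD libraries lay below all GT and TJ libraries for Akt2 and Slc2a4, and HFD libraries lay above them for Slc2a1.

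Tbc1d4 (chr14:101442360-101609191, minus strand) encodes the Rab GTPase-activating protein, also named AS160, that holds GLUT4 vesicles back until AKT phosphorylates it. Its HFD libraries ranged from 9.89 to 13.7 FPKM, GT from 13.2 to 15.1 and TJ from 11.2 to 16.1, and the means were 11.8 ± 1.89, 14.1 ± 0.936 and 13.9 ± 2.49 (SD, n = 3). The groups overlapped, with log2 differences from HFD of 0.25 for GT (adjusted p = 0.247) and 0.21 for TJ (adjusted p = 0.375). The ND libraries held 1.24, 21.5 and 15.0 FPKM, and the difference of HFD from ND was 0.45 ± 0.89 with all 6 libraries (adjusted p = 0.791) and -0.58 ± 0.22 without replicate 1 (adjusted p = 0.146).

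Slc2a4 (chr11:69942539-69948188, minus strand) held 25.6, 28.8 and 20.0 FPKM in HFD, 35.3, 47.1 and 69.2 in GT and 44.4, 38.7 and 50.1 in TJ. Every GT and TJ library lay above every HFD library, and GT spread more widely than TJ. TJ exceeded HFD by 0.82 ± 0.18 (adjusted p = 0.0293). GT exceeded HFD by the larger estimate of 0.96 ± 0.25, which did not pass (adjusted p = 0.0696). The difference of TJ from GT was -0.14 with a 95% interval of -0.70 to 0.43, so neither was shown to exceed the other. ND replicates 2 and 3 held 62.7 and 36.0 FPKM and replicate 1 held 2.54. Without replicate 1 the difference of HFD from ND was -0.93 ± 0.28 (adjusted p = 0.0881), and with all 6 libraries it was 0.33 ± 1.08 (adjusted p = 0.875). Skeletal muscle also uses GLUT4, and 4 muscle markers summed to 0.610, 0.813 and 0.139 FPKM in HFD, 0.336, 0.599 and 0.400 in GT and 0.750, 2.15 and 2.06 in TJ. These sums were low in all 3 groups and higher in TJ replicates 2 and 3 than in any HFD library, and their part in the level of Slc2a4 was not tested.

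Slc2a1 (chr4:119108711-119137983, plus strand) was low throughout, at 6.58, 5.72 and 8.41 FPKM in HFD, 4.98, 5.05 and 4.35 in GT and 3.56, 3.42 and 4.29 in TJ. These 3 groups did not overlap, in the order HFD, GT, TJ. TJ fell below HFD by 0.72 ± 0.17 (adjusted p = 0.0358), the difference for GT was -0.44 ± 0.15 (adjusted p = 0.112), and that of TJ from GT was -0.29 ± 0.15 (adjusted p = 0.255). The TJ call depended on scaling, and was lost just past the threshold under median-of-ratios scaling (-0.62) and at an adjusted p of 0.113 under quantile normalization (-0.45). ND replicates 2 and 3 held 3.29 and 5.95 FPKM and replicate 1 held 0.918, a value that rests on about 28.3 fragments. HFD differed from ND by 1.02 ± 0.53 with all 6 libraries (adjusted p = 0.494) and by 0.52 ± 0.28 without that replicate (adjusted p = 0.284). The antisense genes Gm12867 and Gm12868 lie on the other strand of Slc2a1, and reads of both strands cannot be told apart where strand was not kept. The same holds for Gm16180 at Insr, Gm9747 at Irs1, 9530052E02Rik at Irs2 and Gm20402 at Foxo1.

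Ratios within a library do not depend on how libraries are scaled. Akt2 over Akt1 was 1.32, 1.46 and 1.44 in HFD, 1.87, 2.48 and 3.23 in GT, and 3.38, 4.94 and 2.56 in TJ. In ND it was 1.91, 5.38 and 4.38, so that the HFD libraries had the lowest 3 of the 12 ratios. Slc2a4 over Slc2a1 was 3.88, 5.02 and 2.38 in HFD, 7.08, 9.32 and 15.9 in GT, and 12.5, 11.3 and 11.7 in TJ. ND held 2.77, 19.0 and 6.06, with replicate 1 within the HFD range. Irs2 over Irs1 overlapped between HFD (6.90 to 10.6), GT (8.71 to 11.6) and TJ (8.57 to 10.99). An exact permutation test of 3 libraries against 3 cannot give a p below 0.1, so these ratios are given as values without a test.

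**Figure D3:**
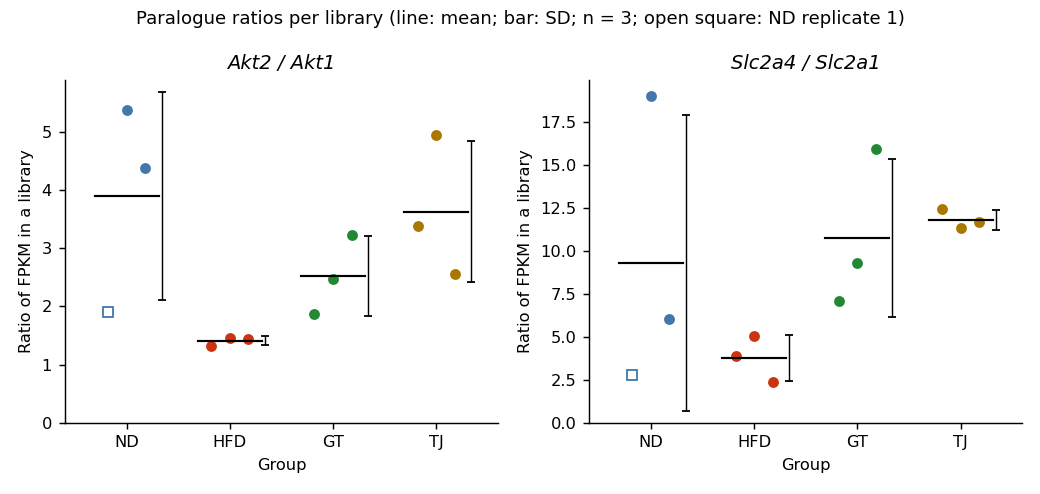
Ratios of FPKM within each library (linear axes from 0) are plotted by group for Akt2 over Akt1 and for Slc2a4 over Slc2a1, with the mean as a line and the SD as a bar. HFD sits at 1.32 to 1.46 and 2.38 to 5.02, under every GT and TJ library in both panels.

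Foxo1 (chr3:52268336-52353221, plus strand) encodes the transcription factor that AKT inactivates. Its HFD libraries ranged from 15.9 to 19.2 FPKM, GT from 18.9 to 24.7 and TJ from 16.1 to 23.6, and ND replicates 2 and 3 held 23.2 and 22.1. The groups overlapped, with log2 differences from HFD of 0.30 ± 0.13 for GT (adjusted p = 0.178) and 0.23 ± 0.17 for TJ (adjusted p = 0.328). The difference of HFD from ND was 0.65 ± 0.88 with replicate 1, at 1.77 FPKM (adjusted p = 0.699), and -0.39 ± 0.14 without it (adjusted p = 0.124).

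Transcript length moved with the fold changes in every comparison but GT against HFD. In TJ against HFD, Spearman's rho between the length of the longest coding transcript and the log2 fold change was -0.357. It was taken over 12725 genes, which are not independent replicates. The 10 genes were long, with a median of 6403 nt against 3026 nt. With this trend removed in TJ against HFD, 5 of the 10 genes were upregulated, where 11.4% of all genes were. None was downregulated, where 7.34% of all genes were. Insr (0.75), Tbc1d4 (0.64) and Foxo1 (0.72) joined Akt2 (1.13) and Slc2a4 (0.93), while Slc2a1 no longer passed (-0.52, adjusted p = 0.0591). The rho was -0.52 in TJ against GT and 0.27 in HFD against ND with all 6 libraries, and 0 of the 10 genes were called in either with or without the trend. It was -0.0235 in GT against HFD, and Akt2 alone of the 10 genes was called with or without the trend. The median log2 fold change of all genes was -0.14 in TJ against HFD and -0.12 in GT against HFD, and the median of the 10 genes was 0.04 and 0.33. Median-of-ratios scaling moved the median of all genes to -0.03 and -0.02, and the split of called genes from 949 up and 1417 down to 1174 and 1170 for TJ and from 233 and 231 to 360 and 137 for GT.

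The other genes of the pathway were taken from 9 lists by role, 112 genes in all. In TJ against HFD, 7 of 103 tested genes (6.80%) were upregulated, where 7.41% of all genes were, and 20 (19.4%) were downregulated, where 11.1% of all genes were, with a median log2 fold change of -0.28. With the length trend removed, 13 rose (12.6%, against 11.4% of all genes) and 11 fell (10.7%, against 7.34%). Falls then no longer outnumbered rises, in the lists as in all genes, but the share of falls stayed above that of all genes. With median-of-ratios scaling 8 rose, where 9.24% of all genes did, and 16 fell, where 9.21% did. For GT the counts were 3 of 102 (2.94%, against 1.83% of all genes) upregulated and 2 (1.96%, against 1.81%) downregulated, with a median of -0.13. Each of these calls was lost with at least 1 library left out, at a limma adjusted p of up to 0.177. The GT counts were 8 and 3 with the length trend removed, where 3.74% and 1.13% of all genes were called. They were 6 and 2 with median-of-ratios scaling, where 2.84% and 1.08% were. The 3 genes upregulated in GT are given with their values in both comparisons. Trarg1, a regulator of GLUT4 trafficking, held 142, 136 and 132 FPKM in HFD, 223, 287 and 331 in GT and 271, 341 and 218 in TJ, and it rose by 1.01 ± 0.15 in GT (adjusted p = 0.0340) and 0.99 ± 0.18 in TJ (adjusted p = 0.0253). Irs3, a further receptor substrate found in rodent fat, rose by 0.77 ± 0.12 in GT (adjusted p = 0.0379) and 0.89 ± 0.13 in TJ (adjusted p = 0.0205), from a mean of 18.8 ± 1.96 FPKM in HFD to 32.8 ± 3.96 and 35.6 ± 2.28. Pck1, which encodes cytosolic phosphoenolpyruvate carboxykinase and is a known FOXO1 target, held 266, 246 and 227 FPKM in HFD, 444, 819 and 980.2 in GT and 940.3, 1626 and 818 in TJ. It rose by 1.53 ± 0.28 in GT (adjusted p = 0.0411) and 2.13 ± 0.26 in TJ (adjusted p = 0.0196).

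Among receptors and ligands, 0 of 4 tested genes were called in GT and 1 in TJ, where Igf2r, the receptor that clears IGF2, fell by 1.21 ± 0.25 (adjusted p = 0.0284). Among adaptors beside Irs1 and Irs2, 1 of 10 rose (Irs3) and 0 fell in GT, and 1 rose and 2 fell in TJ, where Cbl, a ubiquitin ligase, fell by 2.26 ± 0.40 (adjusted p = 0.0248). Of 9 subunits of phosphoinositide 3-kinase and PDK1, 0 were called in GT and 2 fell in TJ. These were Pik3cg, by 1.48 ± 0.28 (adjusted p = 0.0253), and Pik3cd, by 1.06 ± 0.28 (adjusted p = 0.0430, or 0.0535 with the length trend removed), which encode the catalytic subunits known from leukocytes. Of 12 genes of the mTOR complexes and their regulators, 0 were called in GT and 2 fell in TJ. These were Tsc1, a subunit of the complex that restrains mTOR complex 1, by 0.81 ± 0.19 (adjusted p = 0.0361), and Rptor, the scaffold of mTOR complex 1, by 0.59 ± 0.12 (adjusted p = 0.0279). With the length trend removed neither was called, at -0.35 for Tsc1 (adjusted p = 0.0536) and -0.16 for Rptor (adjusted p = 0.374), and Rps6kb2, an S6 kinase gene, rose (0.81).

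Of the negative regulators, 1 of 18 fell in GT and 0 rose, and in TJ 3 of 19 rose and 4 fell. Grb14, an adaptor that inhibits the receptor kinase, fell by 0.81 ± 0.12 in GT (adjusted p = 0.0340), from 23.2 ± 2.82 to 12.7 ± 1.28 FPKM. In TJ it also fell, by 1.00 ± 0.23 (adjusted p = 0.0316), to 11.3 ± 3.37 FPKM. The largest fall in TJ was that of Inpp5d, a phosphatase of blood cells that removes the lipid product of phosphoinositide 3-kinase, by 1.87 ± 0.34 (adjusted p = 0.0248). Socs1, a suppressor of cytokine signalling, and Enpp1, an inhibitor of the receptor, are among the 3 that rose and the 4 that fell, but each passed the filter at 1 FPKM only through the group where it was high, so their tests are not given. Socs1 measured 0.894 ± 0.620 FPKM in HFD, 0.543 ± 0.265 in GT and 3.01 ± 0.224 in TJ, and Enpp1 measured 4.91 ± 2.18 FPKM in HFD, 1.38 ± 0.355 in GT and 0.883 ± 0.304 in TJ. Socs1 was also the 1 gene of the 9 lists called in TJ against GT, where it was tested only because of its TJ values. Of 21 genes of GLUT4 vesicle traffic, 1 rose (Trarg1) and 1 fell in GT, and 1 rose and 3 fell in TJ, or 1 and 1 with the length trend removed. The gene that fell in GT was Rab8a, a Rab GTPase, by 0.78 ± 0.11 (adjusted p = 0.0338). Rab8a held 30.5, 34.1 and 29.8 FPKM in HFD, 20.2, 17.9 and 15.95 in GT and 17.4, 19.0 and 16.8 in TJ, where it fell by 0.79 ± 0.12 (adjusted p = 0.0223, or 0.0689 with the length trend removed). The largest fall in TJ was that of Lnpep, an aminopeptidase of GLUT4 vesicles, by 1.48 ± 0.38 (adjusted p = 0.0398).

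Other glucose transporters gave 0 calls of 8 in both comparisons, and Slc2a8 (0.63) and Slc2a12 (0.67) rose in TJ with the length trend removed. Of 8 kinase and enzyme effectors, 0 were called in GT, and in TJ 1 rose and 2 fell, with glycogen synthase Gys1 at 0.69 ± 0.15 (adjusted p = 0.0303) and ATP citrate lyase Acly at -1.25 ± 0.31 (adjusted p = 0.0381). Of 12 genes of the FOXO family or known to be raised by FOXO, 1 rose (Pck1) and 0 fell in GT, and 1 rose and 4 fell in TJ. Sesn3, a sestrin, fell furthest, by 0.99 ± 0.25 (adjusted p = 0.0399). With the length trend removed 3 genes of this list rose in TJ (Pck1, Klf15 and Foxo4) and 0 fell, and Sesn3, at -0.49, was short of a 1.5-fold change. Without HFD replicates 1 and 2, 0 genes of these lists were called in either comparison.

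**Figure D4:**
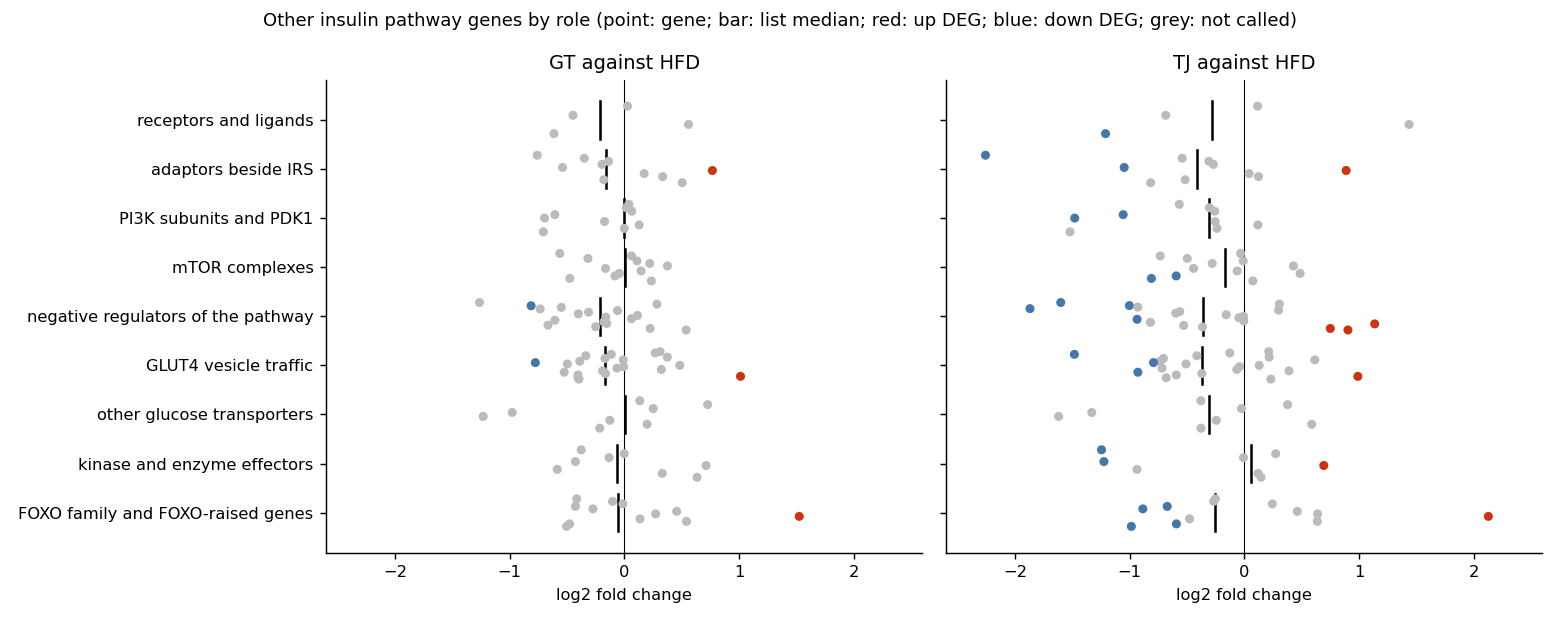
Each point is the log2 fold change of 1 gene, by role (rows), in GT against HFD and in TJ against HFD, with the list median as a vertical bar and DEGs in red (up) or blue (down). In TJ there are 20 blue and 7 red points, which became 11 down and 13 up with the length trend removed, and GT has 3 red and 2 blue points, among them Pck1 at 1.53 and Trarg1 at 1.01.

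In HFD against ND with all libraries, 2 of 103 genes of the lists were upregulated (1.94%, against 1.73% of all genes) and 0 were downregulated. Pik3r5, a regulatory subunit of phosphoinositide 3-kinase known from leukocytes, held 29.6, 31.3 and 31.98 FPKM in HFD and 0.427, 2.85 and 3.84 in ND, and it rose by 3.42 ± 0.51 (adjusted p = 0.0406). Inpp5d rose by 2.27 ± 0.36 (adjusted p = 0.0459), a call that was lost with median-of-ratios scaling (adjusted p = 0.0581) and with the length trend removed (adjusted p = 0.0683). With the replicate block neither was called, at an adjusted p of 0.109 for Pik3r5 and 0.158 for Inpp5d. Leaving out any 1 library but ND replicate 1 also ended both calls, with an adjusted p of 0.0865 to 0.299 for Pik3r5 and 0.0870 to 0.344 for Inpp5d. Without ND replicate 1, 16 of 102 rose (15.7%, against 11% of all genes) and 10 fell (9.80%, against 4.34%). The furthest falls and rises there were Pck1, by 3.05 ± 0.13 (adjusted p = 0.000735) with 2129.8 and 1954 FPKM in ND replicates 2 and 3, and Pik3r5, at 2.89 ± 0.15 (adjusted p = 0.000925).

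Markers of cell types moved with the same comparisons. All 8 adipocyte markers were higher in every GT and every TJ library than in every HFD library, and their sum was 15662 to 18383 FPKM in HFD, 23068 to 26569 in GT and 29275 to 66706 in TJ. In GT 3 of these 8 were upregulated, and in TJ 6 were. The 8 macrophage markers summed to 3060 to 4343 FPKM in HFD, 1239.6 to 2835 in GT, 732 to 2253 in TJ and 65.1 to 552 in ND. In TJ all 8 lay below HFD in every library and 6 were downregulated, and in GT 6 lay below and 0 were called. The 5 fibroblast and progenitor markers summed to 1790.3 to 1941 FPKM in HFD, 1165 to 1443 in GT and 934 to 1123 in TJ. Of these 5, 3 were downregulated in TJ and 1 in GT, and 4 and 3 lay below HFD in every library. All 6 germ cell markers lay below every HFD library in TJ, with sums of 0.602 to 8.76 FPKM against 25.7 to 1823 in HFD, and 0 of them were called. In GT they overlapped HFD, with sums of 12.2 to 69.5. Of all tested genes, 20.1% in TJ and 12.3% in GT lay above HFD in every library, and 31.4% and 24.4% lay below. The upregulated shares were 7.41% in TJ and 1.83% in GT, and the downregulated shares were 11.1% and 1.81%.

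ND libraries differed in markers as well. ND replicates 2 and 3, above HFD for Insr, Irs2 and Akt2, held 34501 and 23095 summed FPKM of adipocyte markers, against at most 18383 in HFD. All 8 macrophage markers were higher in every HFD library than in every ND library, and 3 were upregulated with all 6 libraries. Of all tested genes, 20.5% were higher in every HFD library and 1.73% were upregulated. Fibroblast and progenitor sums were 59.6, 1299.7 and 1139 FPKM in ND replicates 1 to 3, and 3 of these 5 markers were higher in every HFD library. The part of these shifts in the values of the 10 genes was not tested.

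**Figure D5:**
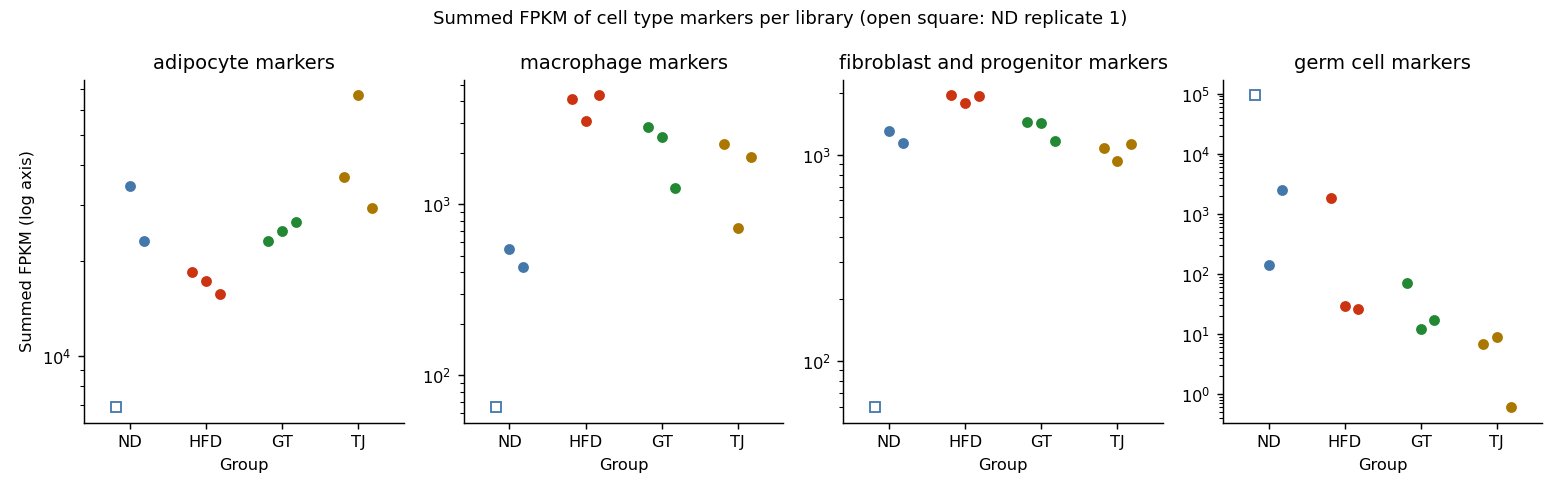
Summed FPKM of marker genes is plotted per library on log axes for adipocytes, macrophages, fibroblasts and progenitors, and germ cells. Adipocyte sums are lowest in HFD among the 3 groups on the HFD and macrophage sums are highest there, and ND replicate 1, an open square, is lowest in the first 3 panels and highest, at 93763, in the last.

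By group mean, the 4 groups give 3 neighbouring steps for each gene, 30 in all, and the libraries of neighbours overlapped in 25 of them. The 5 steps without overlap, where 17.7% of the steps of all genes averaging 1 FPKM or more had none, were GT above HFD for Irs2, HFD above TJ for Pik3r1, TJ above ND for Akt1, and HFD above GT and GT above TJ for Slc2a1. Without ND replicate 1 the order changed and 22 of the 30 steps overlapped. The 8 without overlap, where 24.1% of the steps of all such genes had none, were ND above GT for Insr and Irs1, GT above HFD for Irs2 and Akt2, ND above TJ for Pik3r1, TJ above ND for Akt1, TJ above HFD for Slc2a4 and HFD above GT for Slc2a1.

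The genes with the profiles nearest to Slc2a4, Irs1 and Slc2a1 were found by the root mean square difference of log2(FPKM + 1), centred and scaled to unit SD per gene, over the 12 libraries. For Slc2a4 they were Apcdd1 (0.162), Ugt1a6b, Scd1, Tshr and Pygb (0.189) out of 10140 genes that averaged 5 FPKM or more. Over the other 11 libraries they were Gstz1 (0.360), D430019H16Rik, Apcdd1, Prkag3 and Tshr (0.386). For Irs1 they were Arhgef37 (0.230), Pcnx, Sort1, Itpr2 and Rab11fip2 (0.327), and Irs2 ranked 23 of 10141. With that library left out its list was Lrba (0.224), Ppp1r9a, Arhgef37, Ercc6l2 and Rasa2 (0.273), and Irs2 ranked 18. For Slc2a1 they were Eps15l1 (0.210), Ddx19a, Med17, Aagab and Cilp (0.240), and without ND replicate 1 Sqle (0.272), Srebf2, Flii, Parp1 and Clptm1 (0.323). Apcdd1 and Tshr for Slc2a4 and Arhgef37 for Irs1 were on both lists, and for Slc2a1 the lists had no gene in common. All these distances rest on the same mice, and the low value of ND replicate 1 enters every distance over 12 libraries. Among the other members at this level, Foxo1 was nearest to Slc2a4 and Akt1 was nearest to Slc2a1, with or without ND replicate 1. Foxo1 ranked 80 of 10140 genes over 12 libraries and 77 of 10138 without that library. Akt1 ranked only 470 of 10141 and 1447 of 10139.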

How the data were processed

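Total RNA of eWAT from 12 mice was sequenced. The authors filtered the reads, mapped them with STAR to an Ensembl release and computed FPKM with Cufflinks, and the deposited FPKM values were used as given. The submitters' processing notes name STAR 2.4.0, Cufflinks 2.1.1 and CASAVA 1.8.2. The methods name a human genome, whereas the identifiers are mouse ones. Whether strand was kept was not stated in the sources used here. Noncoding gene regions were masked by the authors, with multiread and fragment bias correction, which can lower genes that overlap masked regions.

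Gene names and GRCm38 positions came from GENCODE, which named 22671 of 23474 identifiers. Groups follow the labels, with 3 libraries each and 1 mouse per library. Each comparison was a limma fit (version 3.58.1, R 4.3.3, with eBayes set to model the trend of variance with level) to log2(FPKM + 1) of the 6 libraries compared. Genes that averaged 1 FPKM or more were tested. DEGs needed a Benjamini-Hochberg adjusted p, over all tested genes, under 0.05 together with a 1.5-fold difference or more. Reported errors of log2 fold changes are standard errors and those of FPKM are SD. Depth was approximated from the steps in FPKM times transcript length, so no counting interval is given. The alternatives were quantile normalization or median-of-ratios scaling, a pseudocount of 0.1, a filter at 5 FPKM or none, a fit to all 12 libraries, a replicate block, no variance trend, a call at any fold, removal of the length trend (loess, span 0.5) and each library left out.

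The members, gene lists, tests and alternatives were chosen with earlier results of these data known. The genes named from the lists are the DEG with the largest and the one with the smallest log2 fold change of each list in each comparison, and the nearest profiles are the 5 genes with the smallest difference among those that averaged 5 FPKM or more. Pairing by replicate number was checked by correlating deviations from the group means, which gave 0.55, 0.34 and 0.12 for numbers 1 to 3 in HFD against ND. Each was over 0.1, and the block was therefore reported there, although the labels name nothing that a number shares. HFD replicate 3 and ND replicate 2, of unlike numbers, gave 0.63, so these values do not show that the numbers pair the libraries. The tests were run on simulated data first. Rps6kb2, Slc2a8, Slc2a12, Klf15 and Foxo4, called with the length trend removed, and Enpp1 were named after their values were seen. A gene that the lists first held was left out of them for a reason unrelated to its values and is not reported here.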

Additional observations from a re-analysis of the deposited data

How the results depend on the processing

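With 3 libraries per group and no counts, precision rests on the spread between mice, and 3 against 3 cannot reach an exact permutation p below 0.1. The cause of the changes given here was not tested.

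In TJ against HFD, the counts of upregulated and downregulated members and of all called genes were 2, 1 and 2366. They were 0, 0 and 382 with no filter, 0, 0 and 1 with all 12 libraries in the fit, 0, 0 and 1198 with the replicate block, and 0, 0 and 0 without HFD replicates 1 and 2. The downregulated count was 0 with median-of-ratios scaling and with quantile normalization, and 2 at any fold. It was 0, beside 5 upregulated, with the length trend removed, alone or together with the replicate block. Leaving out 1 library gave 0 to 2, 0 to 1 and 0 to 3412.

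In GT against HFD the upregulated count of 1 and the 464 called genes became 0 and 5 with no filter, 0 and 1 with all 12 libraries, 0 and 5 with the replicate block, 0 and 67 with no variance trend, 0 and 0 with the replicate block and the length trend removed, and 0 and 0 without HFD replicates 1 and 2. Leaving out 1 library gave 0 to 3 and 4 to 1107.

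In HFD against ND the 0 members and 255 genes became 126 genes with a pseudocount of 0.1, 1 upregulated member and 1131 genes with all 12 libraries, 0 genes with the replicate block and 47 with the block and the length trend removed. Without ND replicate 1, 1 member rose and 3 fell, also with median-of-ratios scaling (1712 genes) and with the length trend removed (1497). Leaving out 1 library gave 0 to 1, 0 to 3 and 0 to 2098. These alternatives without ND replicate 1 beside another choice, those without HFD replicates 1 and 2, and the order of the groups and the overlap of HFD and ND without ND replicate 1 were chosen after seeing the data.

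In TJ against GT the 18 genes became 11 with a pseudocount of 0.1, 6 with no filter, 6 with a mean of at least 5 FPKM, 28 with quantile normalization, 4 with all 12 libraries and 6 with the replicate block and the length trend removed, and 4 to 81 with 1 library left out. Members called stayed at 0 in every alternative.

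The other pathway genes called in TJ against HFD, 7 up and 20 down, were 8 and 16 with median-of-ratios scaling and 3 and 12 with the replicate block, which left 0 called among the mTOR complexes and 0 downregulated in the FOXO list. The block left 0 for GT.

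The replicate numbers were not shown to pair the libraries in the other comparisons either. Equal numbers gave correlations of 0.20, 0.05 and -0.07 in GT against HFD and -0.03, -0.05 and 0.23 in TJ against HFD. In TJ against GT they gave 0.37, -0.21 and -0.08.

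Some estimates turned sign. In HFD against ND, Akt2 became -0.10 with median-of-ratios scaling and -0.15 with the length trend removed, with or without the replicate block. Without ND replicate 1 and with median-of-ratios scaling, Akt2 was -0.90, Tbc1d4 -0.62, Slc2a4 -0.97 and Foxo1 -0.43, and with the length trend removed instead they were -0.91, -0.58, -0.98 and -0.32. Leaving out 1 library gave -1.26 to 0.20 for Insr, -1.30 to 0.49 for Irs2, -0.86 to 0.63 for Akt2, -0.58 to 1.09 for Tbc1d4, -0.93 to 1.16 for Slc2a4 and -0.39 to 1.18 for Foxo1. In GT against HFD, Pik3r1 was -0.0053 without HFD replicates 1 and 2 and -0.24 to 0.18 with 1 library left out. In TJ against HFD, Irs1 and Irs2 were 0.16 and 0.078 with quantile normalization, and Irs1, Irs2 and Pik3r1 were 0.34, 0.30 and 0.046 with the length trend removed, with or without the block. Leaving out 1 library gave -0.34 to 0.17 for Irs2. In TJ against GT, Akt2 was -0.026 with quantile normalization, and Insr, Tbc1d4 and Foxo1 were 0.18, 0.25 and 0.28 with the length trend removed, with or without the block. Leaving out 1 library gave -0.020 to 0.34 for Akt2, -0.14 to 0.10 for Tbc1d4, -0.36 to 0.11 for Slc2a4 and -0.17 to 0.088 for Foxo1.

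Over all alternatives the log2 fold change of Slc2a4 in TJ against HFD stayed between 0.68 and 1.10, that of Akt2 between 0.61 and 1.13 and that of Slc2a1 between -0.99 and -0.45, and that of Akt2 in GT against HFD stayed between 0.55 and 0.77.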

Other observations

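Other cell type markers gave few calls. The 5 endothelial markers summed to 193 to 223 FPKM in HFD, 209 to 266 in GT and 223 to 372 in TJ, and limma called 0 of them in either comparison with HFD. The 3 erythrocyte markers summed to 134 to 261 FPKM in HFD, 132 to 162 in GT and 191 to 645 in TJ, also with 0 calls. Of 4 mesothelial markers, which summed to 8.40 to 11.05 FPKM in HFD and 3.05 to 15.4 in TJ, 1 fell in TJ. The 5 lymphocyte markers were low. They summed to 1.48 to 1.94 FPKM in HFD, 1.56 to 3.53 in GT and 3.87 to 6.21 in TJ. In TJ 4 of them were higher in every library than in every HFD library, where 20.1% of all tested genes were. Of these 5, 2 averaged enough to be tested in TJ against HFD, and 0 were called. The 3 brown fat markers summed to at most 10.6 FPKM in HFD, 3.69 in GT and 4.00 in TJ.

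ND replicate 1 was lower than the mean of the other ND libraries for all 10 insulin pathway genes, from 3.02-fold lower for Akt1 to 19.4-fold lower for Slc2a4. Its 8 adipocyte markers summed to 6865 FPKM, against 23095 and 34501 in ND replicates 3 and 2.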
